A study of Gallus gallus with 20 samples.

Results

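The genes described here encode nuclear subunits of the 5 complexes of oxidative phosphorylation. They were taken by gene symbol (the prefixes NDUFA, NDUFB, NDUFC, NDUFS and NDUFV with a digit, UQCR, SDHA to SDHD, COX4 to COX8, and ATP5), without the W-linked ATP5A1W, and 65 of the 30108 genes of the table were members. Of these, 30 belonged to complex I, 3 to complex II, 8 to complex III, 9 to complex IV and 15 to complex V. The symbol sets the complex, so NDUFA4, which is now placed with complex IV, was counted in complex I, and the list also holds factors bound to a complex, such as COX7A2L and ATP5S. No symbol had more than 1 row. All 65 members passed the filter on low counts, with between 99 and 25176 counts in a sample.

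The cells were muscle satellite cells (MuSCs, labelled as primary skeletal myoblasts) isolated from the pectoralis muscle of Ross-308 broilers aged 36 days and expanded in culture, with 11 samples from non-affected (NA) birds and 9 from birds affected (A) by wooden breast, a myopathy in which the breast muscle hardens. The groups differ by the diagnosis of the bird, and no treatment was given. In 4 labels (A16B, A76B, NA61B and NA64B) a B follows a number that another sample carries without it. Nothing in them says whether such a pair comes from the same bird, and A76 and A76B differ in W-linked transcripts (876 and 0 counts of HINTW), so the pairs are compared here by number alone. If they are the same birds, p-values over the 20 samples may in part measure technical spread. Samples had between 15425103 and 28113814 counts.

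Several facts of the series touch the results below. The labels describe male birds, yet transcripts of HINTW, a gene of the female-specific W chromosome, exceeded 100 counts in 9 of 11 NA samples and in 1 of 9 A samples (A76, 876 counts), and were at 9 counts or fewer in the other 10 samples. The sex of the birds and the group therefore largely coincided and cannot be told apart, except through NA61, NA61B and A76. The A samples had lower levels of myogenic genes. Called lower were 4 of 8 tested markers of myogenic cells and 7 of 9 differentiation genes (background 2.91% of all genes). Macrophage markers lay above 0 on the log2 scale for 8 of 8 tested genes, with 3 called higher (background 3.33% of all genes). The summed level of the macrophage list ranged from 17.4 to 80.3 CPM (counts scaled to a common library total) in NA and from 38.8 to 189.8 CPM in A samples. CSF1R, a defining macrophage receptor, was detected in both groups, at a median of 0.818 CPM in NA and 1.46 CPM in A samples. It was called higher (log2 fold change 2.58, edgeR adjusted p = 0.0144) but was uneven. Its level was at most 0.96 CPM in NA samples and ranged from 0.18 to 21.5 CPM in A samples, with A79 highest. PAX7, the transcription factor of satellite cells, was detected in all samples. Its median was 158 CPM in NA and 70.8 CPM in A samples, and 9 of 9 A samples lay below the NA median. The log2 fold change of PAX7 was -0.81 (edgeR adjusted p = 0.106), so it was not called. Its lowest level was that of NA64B (20.03 CPM), and the others lay between 34.6 and 215 CPM. Other myogenic markers were low in A samples, with medians for MYOD1 of 25.4 CPM in NA and 0.92 CPM in A, and for MYF5 of 45.9 and 4.62 CPM. Of the 8 tested, 7 lay below 0 and 1 above. The fibroblast list summed to between 5645 and 22346.5 CPM in NA and between 3788 and 17379 CPM in A samples. The identity of the cultures was not tested.

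Oxidative phosphorylation takes place in the inner membrane of the mitochondrion. Complexes I and II pass electrons from NADH and succinate to ubiquinone, complex III hands them to cytochrome c, and complex IV reduces oxygen, while complexes I, III and IV pump the protons that drive ATP synthesis by complex V. The subunits are made from 2 genomes. The nucleus encodes most of them and the mitochondrial DNA a small set of hydrophobic core subunits, and complex II is entirely nuclear. Skeletal muscle relies on this system for sustained work, and satellite cells change their use of it when they leave quiescence, divide and differentiate.

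Most nuclear subunits lay slightly lower in A than in NA MuSCs, and very few of them passed the test. The log2 fold change (A over NA) was below 0 for 59 of 65 members (90.8%), against 51.4% of all 14524 tested genes, and its median was -0.19 for the members and -0.01 for all genes. Every member differed by less than 2-fold, with log2 fold changes from -0.51 (NDUFA6) to 0.68 (NDUFS4). With the quasi-likelihood test of edgeR and Benjamini-Hochberg adjustment, 2 of 65 members (3.08%) had an adjusted p of 0.05 or less, against a background of 6.24% of all tested genes. NDUFS4 was the member called higher (background 3.33%) and NDUFB6 the member called lower (background 2.91%). When a log2 difference of at least 1 in size was required as well, edgeR called 0 of 65 members, against 3.29% of all genes. An unadjusted p under 0.05 was found for 15 of 65 members (23.1%) and for 24.1% of all genes, so the share was near that of all genes. Other tools called more members and more genes: DESeq2 called 5 of 65 members (7.69%) and 10.6% of all genes, and limma-voom 8 of 65 (12.3%) and 15.4% of all genes. The groups overlapped for every member, and how often they did so among all tested genes was not counted. Since these are bulk cultures, fewer cells of a type and less RNA per cell cannot be told apart.

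The same side of 0 was seen in each complex. The median log2 fold change was -0.19 for complex I, with 27 of 30 members below 0, and -0.19 for complex II, with 3 of 3 below 0. It was -0.17 for complex III, where 8 of 8 members were below 0. For complex IV it was -0.22, with 8 of 9 below 0, and for complex V it was -0.19, with 13 of 15 below 0. The medians of the complexes thus lay within a narrow band, while members of 1 complex differed from each other by far more. Without NA64B, the sample in which these genes were highest, 54 of 65 members stayed below 0 and the median of all members was -0.11. The medians were then -0.11, -0.19, -0.11, -0.15 and -0.12 for complexes I to V. With HINTW as a term in the fit, added because W transcripts nearly separate the groups, 30 of 65 members were below 0 and their median was 0.01. Of all 14524 tested genes, 7000 were then below 0, and their median was 0.01 as well. In that fit 0 of 65 members were called by edgeR and 0 had an unadjusted p under 0.05, while 1 gene in the whole table was called and 849 had an unadjusted p under 0.05.

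**Figure D1:**
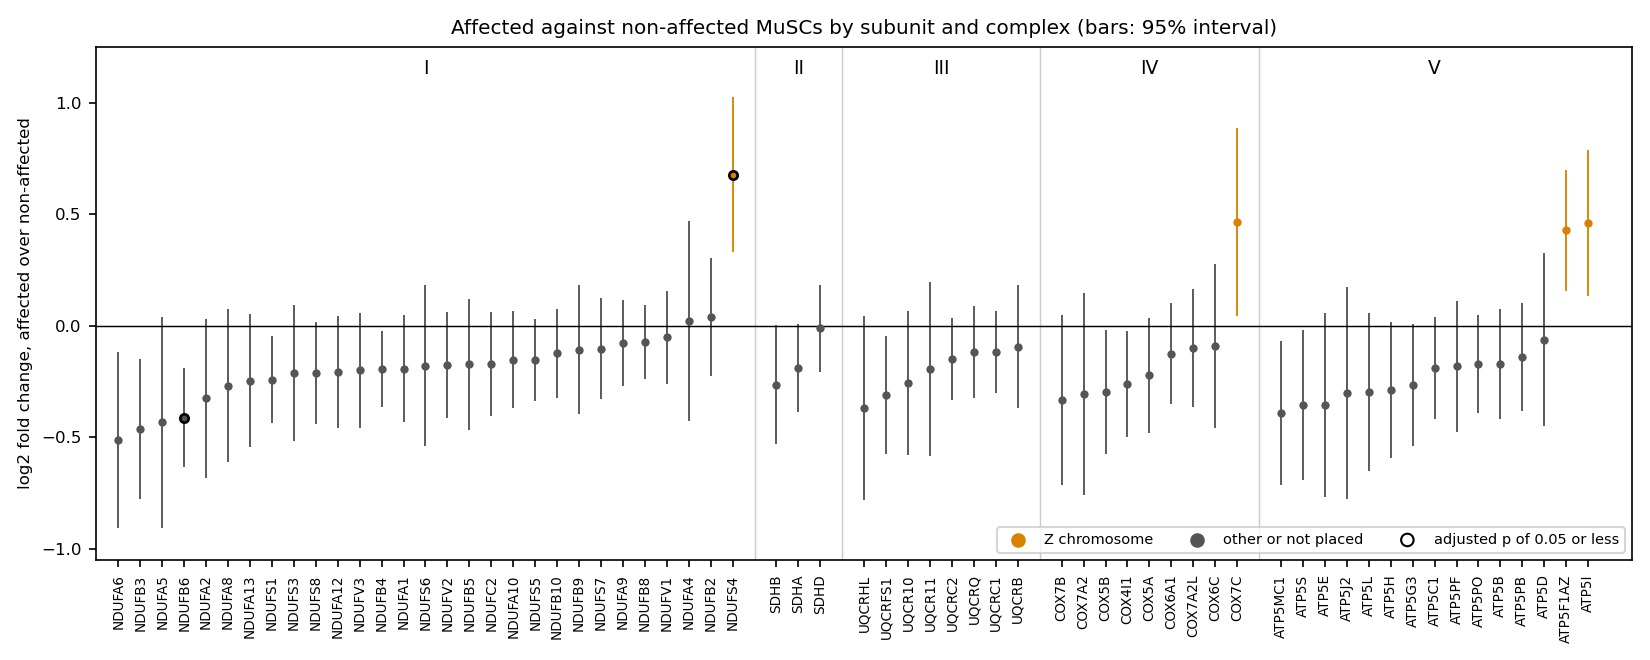
Log2 fold change of A over NA MuSCs on the y axis for 64 of the 65 subunits on the x axis, ordered by complex, with bars for the 95% interval of the edgeR fit. Members on the Z chromosome are in orange and the others in grey, and a black ring marks an adjusted p of 0.05 or less: 58 points lie below 0, and the 4 highest points are the 4 Z members.

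The level of each complex was also summed per sample as CPM with TMM scaling, a sum that rests mostly on the members with the highest counts. For complex I the sum was 2329 ± 393 CPM in NA (SD, n = 11) and 2129 ± 244 CPM in A samples (SD, n = 9), a ratio of 0.914. For complex II it was 321 ± 30.8 CPM in NA and 291 ± 27.95 CPM in A samples, a ratio of 0.907. Complex III, at 737 ± 115 CPM in NA and 650 ± 96.5 CPM in A samples, had a ratio of 0.881. All of these differences were no larger than 1 SD of the NA samples. The sum for complex IV was 650 ± 151 CPM in NA and 596 ± 88.4 CPM in A samples, a ratio of 0.917. For complex V, counted without the W copy of its alpha subunit (ATP5A1W), it was 2556 ± 433 CPM in NA and 2421 ± 416 CPM in A samples, a ratio of 0.947. The ranges of the groups overlapped for each complex. Of the 9 A samples, 7, 8, 7, 6 and 5 lay below the NA median for complexes I to V.

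Leaving out NA64B moved the sums of the groups closer together, least so for complex II. The ratios without it were 0.959, 0.912, 0.917, 0.977 and 0.994 for complexes I to V, so that the A and NA means of complex V nearly coincided. This holds only for the sum as defined here, which includes the Z copy of the alpha subunit but not its W copy. The W copy (ATP5A1W) averaged 157 CPM in NA samples without NA64B and 5.18 CPM in A samples, so a sum that included it would lie further apart between the groups. NA64B had a sum of 3419 CPM for complex I, where the next NA sample had 2473 CPM, and of 1049 CPM for complex IV, where the next had 703 CPM. For complex II it stood inside the group, with 339 CPM between a lowest NA value of 263 and a highest of 361 CPM.

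**Figure D2:**
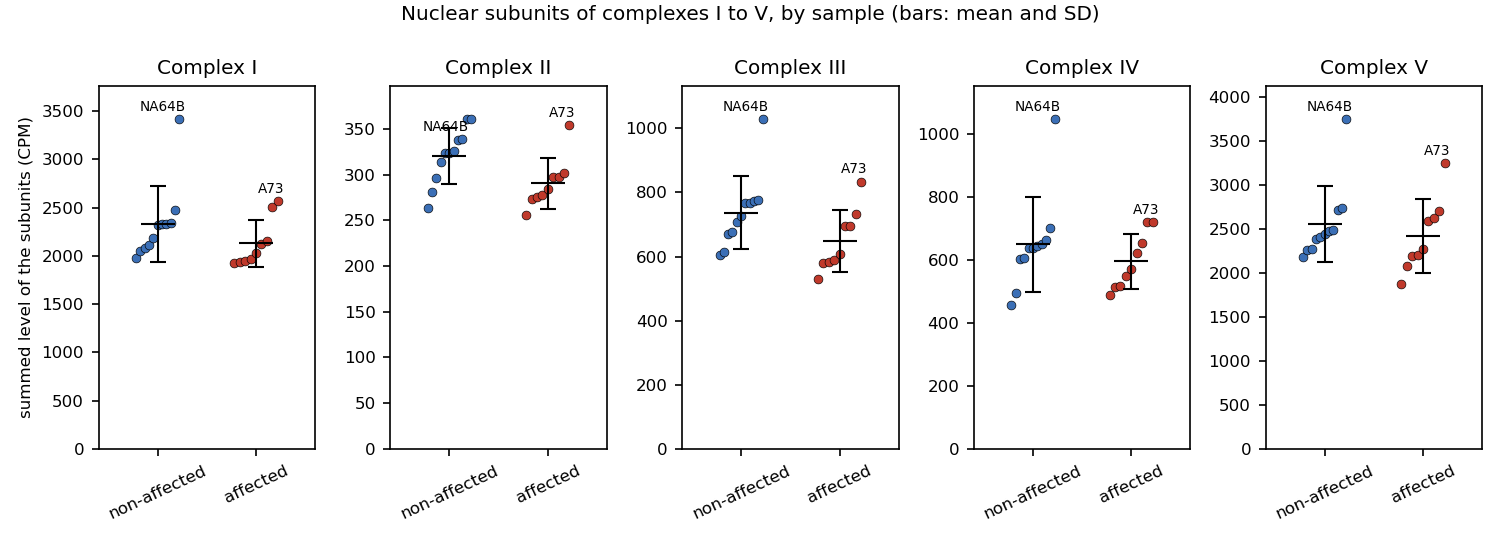
Summed level of the subunits of each complex in CPM on the y axis, 1 panel per complex, with NA samples in blue and A samples in red; the bars give the mean and the SD. NA64B stands above all other samples in complexes I, III, IV and V but not in complex II, where A73 (354 CPM) is the highest A sample.

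The samples differed from each other more than the groups did. NA64B had the highest level of 51 of the 65 members, and its median deviation from the mean of the 20 samples was 0.73 on the log2 scale. The next samples were A73 at 0.28 and NA65 at 0.18. The lowest were A72 at -0.28, A16B at -0.27, A85 at -0.26 and NA66 at -0.23. Both ends of this order thus held samples of each group. A16B had the lowest level of 14 members, NA66 of 11, and A72 and A85 of 9 each, and in 42 of 65 members the lowest sample was an A sample.

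Other gene groups moved with this order, and their part in it was not tested. The cytosolic ribosomal proteins, a list added after values were seen, summed to 49698 CPM in NA64B, 34964 CPM in A73 and 19062 CPM in A72. The proteins of the mitochondrial ribosome, a list added in the same way, summed to 4576 CPM in NA64B, 3709 CPM in A73 and 2193 CPM in A72. In both lists NA64B and A73 were highest and A72 lowest, as in the order by median deviation. Other samples did not keep that order in the cytosolic list, where A16B (23802 CPM) stood above NA66 (21093 CPM). TOP2A, a topoisomerase of dividing cells chosen here after values were seen, stood at 380 CPM in A73 and 314 CPM in A76 but at 24.96 CPM in A72 and 28.1 CPM in A16B. The NA samples did not follow the order for TOP2A. NA68, at a median deviation of -0.14, had 418 CPM, and NA65, at 0.18, had 149 CPM. In NA64B the level of TOP2A was 220 CPM, inside the NA range of 128 to 418 CPM. NA64B also had the lowest summed level of differentiation genes in its group, 11.1 CPM against 39.6 to 2176 CPM in the other NA samples.

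Except for NA61 and NA61B, samples that share a number did not share their level. NA64B was above NA64 for 63 of 65 members, with a median ratio of 1.53. A16B was above A16 for 3 of 65 members and A76B above A76 for 7 of 65, with median log2 ratios of -0.35 and -0.27. NA61B was above NA61 for 28 of 65 members, with a median log2 ratio of -0.07. The difference between NA64 and NA64B was therefore larger than the median difference between the groups.

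**Figure D3:**
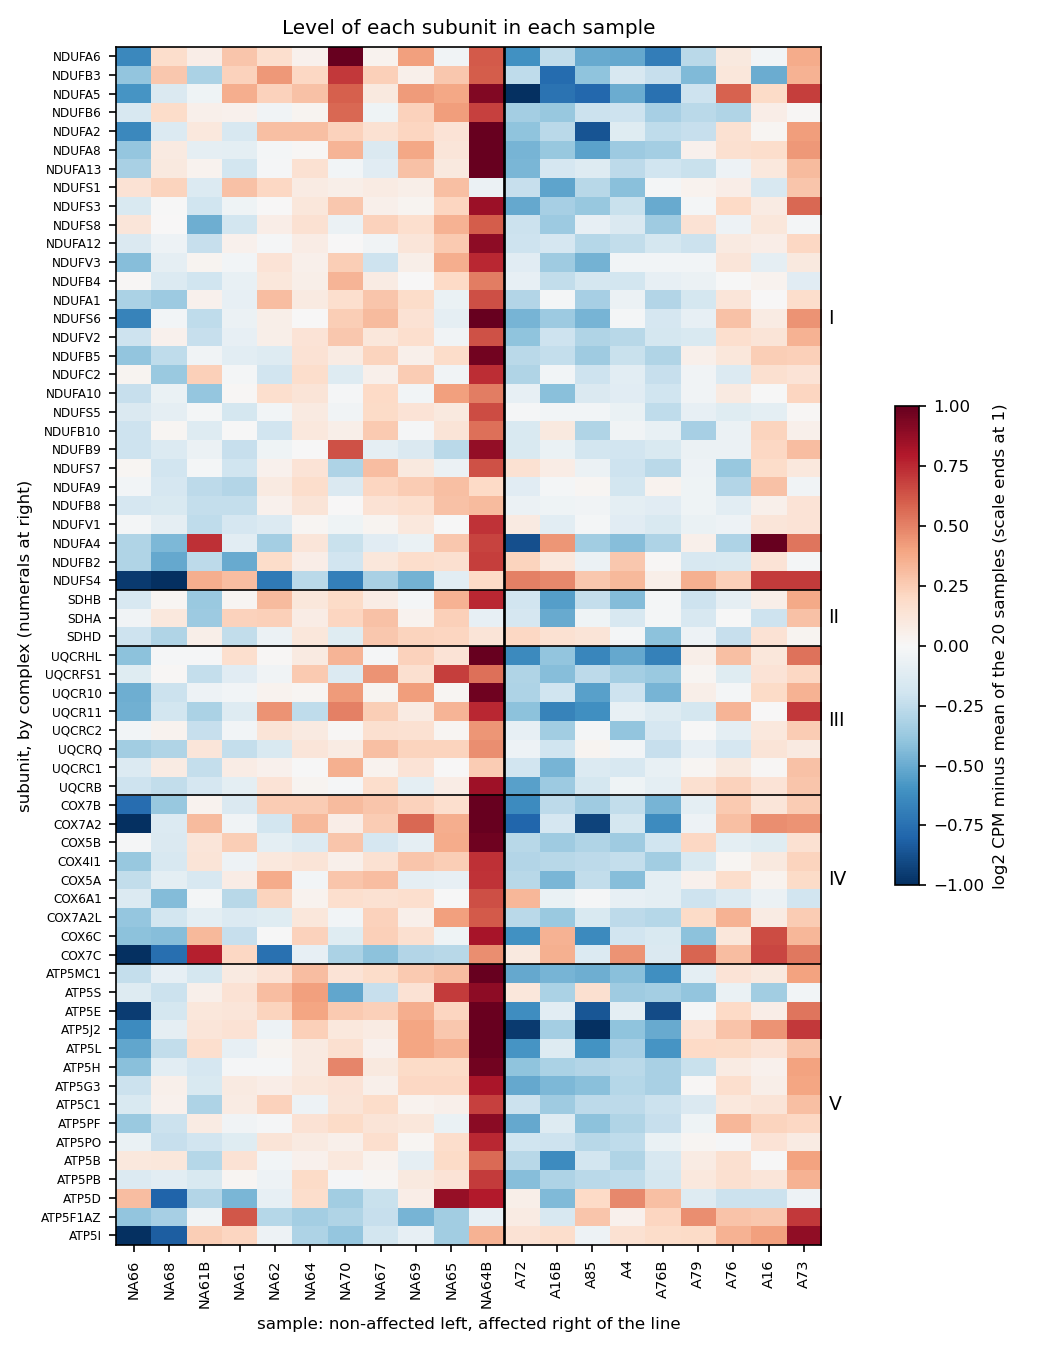
Level of 64 of the 65 subunits (rows, by complex) in each of the 20 samples (columns, NA left and A right of the line, each ordered by the median deviation), as log2 CPM minus the mean over samples, in a colour scale that ends at 1 on either side. The column of NA64B is red in nearly all rows, and the rows of NDUFS4, COX7C, ATP5F1AZ and ATP5I run against the rest, with blue in most NA samples.

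In complex I, the largest of the complexes, the 7 conserved core subunits that carry the flavin and the iron-sulfur clusters or bind ubiquinone all had log2 fold changes below 0 with a median of -0.21. None of them was called by edgeR, and 2 had an unadjusted p under 0.05 (28.6%, against 24.1% of all genes). NDUFS1, the largest iron-sulfur subunit of the peripheral arm, ranged from 129 to 175 CPM in NA samples (median 149.9) and from 98.2 to 172 CPM in A samples (median 127). Its log2 fold change was -0.24 (SE 0.09, edgeR adjusted p = 0.123), and 8 of 9 A samples lay below the NA median, with the ranges overlapping widely. NDUFV1, the flavin subunit that oxidizes NADH, had the smallest difference of the core, with medians of 225 CPM in NA and 221 CPM in A samples and an interval of the log2 fold change from -0.26 to 0.16.

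The other 23 members of complex I had a median of -0.18, and both called members were among them. NDUFB6 (ENSGALG00010018767, chromosome 14, 13406336 to 13408463), an accessory subunit of the membrane arm, ranged from 59.7 to 107 CPM in NA samples (median 69.0) and from 51.2 to 69.7 CPM in A samples (median 55.4). NA64B was highest and A16B lowest, and 8 of 9 A samples lay below the NA median, with A16 at 69.7 and A73 at 67.3 CPM inside the NA range. NDUFB6 fell by 0.41 on the log2 scale (SE 0.11, edgeR adjusted p = 0.0267). The call was kept without NA64B (log2 fold change -0.35, adjusted p = 0.0279) but not without A16B, A72 or A76B, where the adjusted p reached at most 0.0544. With the HINTW term its log2 fold change was -0.28 (edgeR adjusted p = 0.909).

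NDUFB3, another small subunit of the membrane arm, ranged from 12.5 to 26.9 CPM in NA (median 19.4) and from 9.66 to 21.0 CPM in A samples (median 13.8). Its log2 fold change was -0.46 (SE 0.15, edgeR adjusted p = 0.0707), with 8 of 9 A samples below the NA median. The most negative value belonged to NDUFA6, an accessory subunit of the peripheral arm chosen here after its values were seen, at -0.51 (SE 0.19, edgeR adjusted p = 0.107), where NA70 alone reached 68.2 CPM against 18.1 to 43.3 CPM in the other NA samples. NDUFB4 was the member with 9 of 9 A samples below the NA median, at a log2 fold change of -0.19. NDUFB2 (0.04) and NDUFA4 (0.02), also named after their values were seen, were the only members above 0 that are not Z-linked. NDUFA4 varied widely within both groups, from 120 to 274 CPM in NA and from 89.9 to 338 CPM in A samples.

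NDUFS4 (ENSGALG00010012578, chromosome Z, 16643256 to 16689316), an accessory subunit near the NADH-oxidizing end whose loss in humans causes Leigh syndrome, ran the other way. Its level ranged from 27.1 to 69.3 CPM in NA samples (median 43.0) and from 56.1 to 87.8 CPM in A samples (median 69.0). Every A sample lay above the NA median, and NA61 (67.0 CPM), NA61B (69.3 CPM) and NA64B (61.9 CPM) were the NA samples that reached the A range. NDUFS4 rose by 0.68 on the log2 scale (SE 0.17, edgeR adjusted p = 0.0211). The call was kept in all 20 fits that left out 1 sample, with adjusted p between 0.00748 and 0.0405, but with the HINTW term the log2 fold change was 0.31 (edgeR adjusted p = 0.959).

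Complex II, succinate dehydrogenase, was represented by SDHA, SDHB and SDHD. SDHA, the flavoprotein that oxidizes succinate, ranged from 115 to 181 CPM in NA (median 159) and from 104 to 181 CPM in A samples (median 133). The difference was -0.19 on the log2 scale (SE 0.09, edgeR adjusted p = 0.220), and 8 of 9 A samples lay below the NA median. SDHB, the iron-sulfur subunit, ranged from 39.1 to 85.1 CPM in NA (median 53.3) and from 34.6 to 65.8 CPM in A samples (median 44.3), with a log2 fold change of -0.26 (SE 0.13, edgeR adjusted p = 0.212). SDHD, a membrane anchor, had medians of 109 CPM in NA and 107 CPM in A samples and a log2 fold change of -0.01 with an interval from -0.21 to 0.18. SDHB was highest in NA64B, SDHA in A73 and SDHD in NA67.

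In complex III, UQCRFS1, UQCRC1 and UQCRC2 had log2 fold changes from -0.31 to -0.12 and the 5 small subunits from -0.37 to -0.09. The symbol rule does not take in CYC1 (cytochrome c1), so the core of this complex was covered only in part. UQCRFS1, the Rieske iron-sulfur protein, ranged from 90.4 to 172 CPM in NA (median 107) and from 79.5 to 123 CPM in A samples (median 88.9). Its log2 fold change was -0.31 (SE 0.13, edgeR adjusted p = 0.141), with 6 of 9 A samples below the NA median and NA65 highest. The core proteins UQCRC1 and UQCRC2, which carry no redox centre, stood closer to 0. UQCRC1 had medians of 192 CPM in NA and 177 CPM in A samples (log2 fold change -0.12, interval -0.30 to 0.07). UQCRC2 had medians of 160.3 CPM in NA and 148 CPM in A samples (log2 fold change -0.15, interval -0.33 to 0.03). UQCRHL, a hinge-like small subunit, ranged from 38.9 to 127 CPM in NA and from 32.4 to 75.3 CPM in A samples. Its log2 fold change was -0.37 (edgeR adjusted p = 0.260) with NA64B and -0.20 without it.

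In complex IV, cytochrome c oxidase, the 8 members not placed on the Z chromosome had log2 fold changes from -0.33 to -0.09 and a median of -0.24. Among them, COX5B had no position. COX4I1, the ubiquitous form of a subunit that binds ATP, ranged from 76.1 to 165 CPM in NA (median 108) and from 78.0 to 115 CPM in A samples (median 84.3). For this gene the log2 fold change was -0.26 (SE 0.11, edgeR adjusted p = 0.164), and 8 of 9 A samples lay below the NA median. COX5B ranged from 91.2 to 200.3 CPM in NA (median 102) and from 79.8 to 118 CPM in A samples (median 88.8), with a log2 fold change of -0.30 (SE 0.13, edgeR adjusted p = 0.179). For COX5A the medians were 65.4 CPM in NA and 62.1 CPM in A samples, with a log2 fold change of -0.22 (interval -0.48 to 0.03). The intervals of COX5A and of the 2 non-muscle isoforms that follow all held 0. COX6A1 had medians of 65.8 CPM in NA and 60.4 CPM in A samples (log2 fold change -0.12, interval -0.35 to 0.10). COX7A2 had medians of 55.8 CPM in NA and 41.8 CPM in A samples (log2 fold change -0.31, interval -0.76 to 0.15). The isoforms COX6A2, COX7A1, COX4I2 and NDUFA4L2 could not be analysed, since no gene in the counts carried these symbols.

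COX7C (chromosome Z, 61933584 to 61936102), a small subunit, was the exception in complex IV. It ranged from 31.6 to 130.5 CPM in NA (median 62.1) and from 68.9 to 121 CPM in A samples (median 97.5). All 9 A samples lay above the NA median, although the highest single value was that of NA61B. The log2 fold change was 0.47 (SE 0.20, edgeR adjusted p = 0.164), which did not pass the test. With the HINTW term it was 0.13 (edgeR adjusted p = 0.998).

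Complex V, the ATP synthase, held 13 members not placed on the Z chromosome, all with log2 fold changes below 0 and with a median of -0.27. Among them, ATP5MC1, ATP5PF and ATP5PO had no position. ATP5B, the catalytic beta subunit of the F1 head, ranged from 687 to 1240 CPM in NA (median 899) and from 541 to 1105 CPM in A samples (median 749). Its log2 fold change was -0.17 (SE 0.12, edgeR adjusted p = 0.384), and 7 of 9 A samples lay below the NA median. The c-ring, which turns with the passage of protons, was represented by ATP5G3 and ATP5MC1 with log2 fold changes of -0.27 and -0.39. ATP5MC1 ranged from 57.0 to 136 CPM in NA (median 74.2) and from 44.1 to 88.9 CPM in A samples (median 50.5), with an edgeR adjusted p of 0.131. The 4 members of the peripheral stalk (ATP5PB, ATP5H, ATP5PF and ATP5PO), which holds the F1 head in place, lay between -0.29 and -0.14.

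The remaining members of complex V, ATP5F1AZ and ATP5I, lie on the Z chromosome. ATP5I (chromosome Z, 54171951 to 54173799), the e subunit that helps the synthase to form dimers, ranged from 23.9 to 62.9 CPM in NA (median 43.7) and from 47.8 to 91.7 CPM in A samples (median 56.1). All 9 A samples lay above the NA median, and the log2 fold change was 0.46 (SE 0.16, edgeR adjusted p = 0.0849). It was called without NA64B (0.52, edgeR adjusted p = 0.0432), and with all samples by DESeq2 and limma-voom. With the HINTW term its log2 fold change was 0.29 (edgeR adjusted p = 0.977). ATP5F1AZ (ENSGALG00010012088, chromosome Z, 2484032 to 2492037), the Z copy of the alpha subunit of the F1 head, ranged from 287 to 608 CPM in NA (median 322) and from 354 to 648 CPM in A samples (median 478). All 9 A samples were again above the NA median, with a log2 fold change of 0.43 (SE 0.13, edgeR adjusted p = 0.0528). With the HINTW term the log2 fold change of ATP5F1AZ was 0.15 (edgeR adjusted p = 0.998).

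The alpha subunit has a second copy on the W chromosome, listed as ATP5A1W, and reads of copies so alike can be split between them by the counting. ATP5A1W stood between 162 and 222 CPM in the 9 NA samples with W transcripts, at 38.7 CPM in A76 and at or below 1.83 CPM in the other 10 samples. When both copies were added, the level ranged from 388 to 609 CPM in NA and from 354 to 650.3 CPM in A samples. The log2 fold change of the summed rows was -0.0883 (edgeR adjusted p = 0.603), so the sign of the alpha subunit changed with the copy that was counted.

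The 4 Z members were the 4 largest increases among the 65, and their median log2 fold change was 0.46. The other 61 members, 57 placed elsewhere and 4 not placed, had a median of -0.19, with 59 below 0. Z genes as a whole leaned the same way in these samples: of 517 tested genes with a Z position, 411 lay above 0 on the log2 scale, 120 were called higher and 9 lower, and their median was 0.39, against -0.03 for the 10357 genes placed on other chromosomes. As background, male birds carry 2 Z chromosomes and females a Z and a W, and the compensation of this dose is incomplete in birds. In the 10 samples with few W transcripts, NDUFS4 ranged from 56.1 to 87.8 CPM in the 8 A samples and stood at 67.0 and 69.3 CPM in the 2 NA samples. In the 9 NA samples with W transcripts it ranged from 27.1 to 61.9 CPM, and in A76, the A sample with W transcripts, it was 63.8 CPM. ATP5F1AZ showed a similar split, with 354 to 648 CPM in the 8 A samples, 388 and 608 CPM in NA61B and NA61, and 287 to 375 CPM in the other NA samples, while A76 had 483 CPM. The 2 NA samples with few W transcripts thus lay inside the A range for both genes. So did A76 and NA64B, which had W transcripts, with NA64B at 61.9 CPM of NDUFS4 and 375 CPM of ATP5F1AZ. The W transcripts of A76 were fewer than in the NA samples that had them (876 against 1316 to 5701 counts of HINTW). The cause of these levels was not tested. ATP5I stood at 57.4 CPM in NA61 and 58.8 CPM in NA61B, against 47.8 to 91.7 CPM in the 8 A samples. COX7C stood at 88.0 and 130.5 CPM in them, against 68.9 to 121 CPM. The other NA samples had 23.9 to 62.9 CPM of ATP5I and 31.6 to 105 CPM of COX7C, and A76 had 63.0 and 94.2 CPM.

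**Figure D4:**
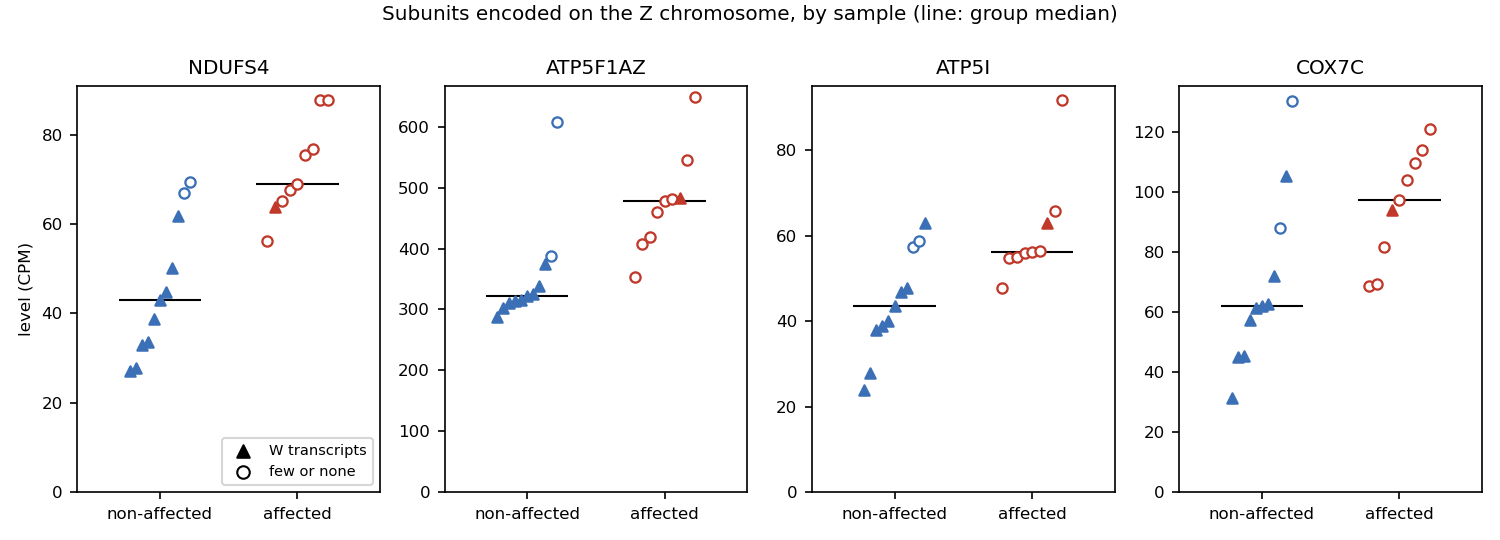
Level in CPM (y axis) of the 4 subunits encoded on the Z chromosome in each NA sample (blue) and A sample (red), with a line at the group median; filled triangles are samples with more than 100 counts of the W-linked HINTW and open circles the others. For NDUFS4 the open circles of both groups lie between 56.1 and 87.8 CPM, while the blue triangles lie between 27.1 and 61.9 CPM.

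The subunits encoded by the mitochondrial DNA lay on the other side of 0. All 13 (ND1 to ND6, ND4L, CYTB, COX1 to COX3, ATP6 and ATP8) had log2 fold changes above 0, between 0.17 and 0.47, with a median of 0.34 against -0.19 for the nuclear members. None was called by edgeR, and 4 had an unadjusted p under 0.05 (30.8%, against 24.1% of all genes). DESeq2 and limma-voom, run as alternatives, called COX1. COX1, the catalytic subunit of complex IV, ranged from 4148 to 8704 CPM in NA (median 6603) and from 6059 to 10484 CPM in A samples (median 8770), with a log2 fold change of 0.41 (SE 0.15, edgeR adjusted p = 0.106). ND3, a core membrane subunit of complex I, ranged from 15.4 to 58.5 CPM in NA (median 26.4) and from 29.1 to 47.0 CPM in A samples (median 38.9), with a log2 fold change of 0.47 (SE 0.19, edgeR adjusted p = 0.125). Some of these genes overlap (ATP8 with ATP6, and ND4L with ND4), so their reads may be shared.

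The summed level of the 13 genes was 22363 ± 6382 CPM in NA (SD, n = 11) and 28219 ± 4540 CPM in A samples (SD, n = 9). It ranged from 14684 to 32568 CPM in NA and from 20783 to 33502 CPM in A samples, so the ranges overlapped although 9 of 9 A samples lay above the NA median of 20103 CPM. The ratio of this sum to the nuclear sum was 3.52 ± 1.29 in NA and 4.78 ± 1.28 in A samples, with 8 of 9 A samples above the NA median. Without NA64B the median log2 fold change of the 13 genes was 0.33 with 13 above 0, and with the HINTW term it was 0.07 with 9 above 0.

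The samples at the low end of the nuclear sums had high mitochondrial sums, although other samples did not follow this order. The 6 samples with the lowest nuclear sums, from 5255 CPM in A16B to 5583 CPM in A76B, had mitochondrial sums between 29659 and 33502 CPM, and they were 5 A samples and NA66. At the other end, NA64B combined the highest nuclear sum, 9588 CPM, with a mitochondrial sum of 18976 CPM. NA62 had the highest mitochondrial sum of the NA samples, 32568 CPM, at a middle nuclear sum of 6219 CPM, and NA64 the lowest, 14684 CPM, at 6508 CPM. Of the 4 pairs with a shared number, 2 showed the opposition. A16B and A76B were above A16 and A76 for 13 of 13 mitochondrial genes while they were below them for most nuclear members, whereas NA64B was above NA64 for 10 of 13 mitochondrial genes and for most nuclear members as well. NA61B was above NA61 for 1 of 13 mitochondrial genes and 28 of 65 nuclear members. Both sums are parts of the same library totals.

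**Figure D5:**
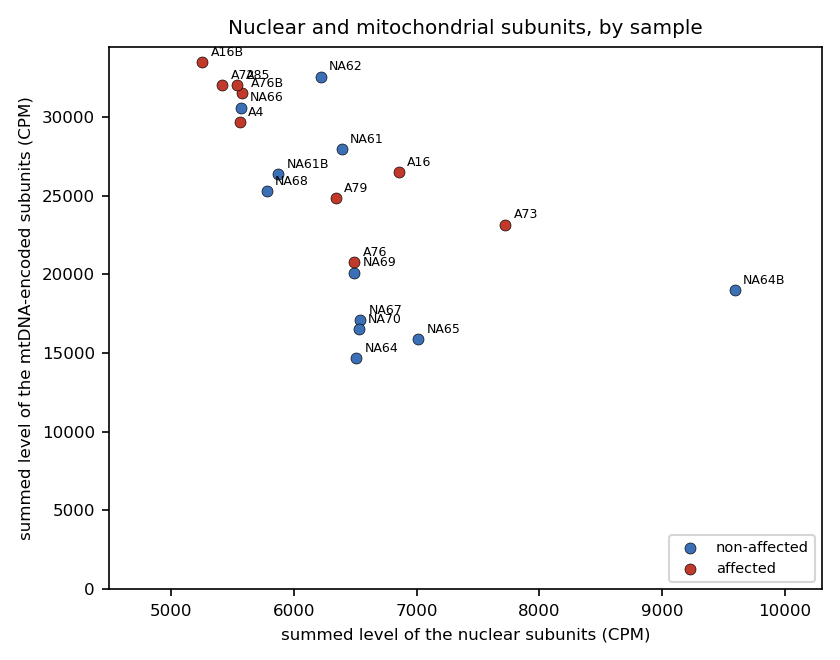
Summed level in CPM of the 13 subunits encoded by mitochondrial DNA (y axis) against that of the 65 nuclear subunits (x axis, which does not start at 0), 1 point per sample, with NA samples in blue and A samples in red. A16B lies at 5255 and 33502 CPM, A73 at 7723 and 23156 CPM and NA64B at 9588 and 18976 CPM.

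Genes that build and regulate the complexes were given as lists, with the same test. Of the assembly factors, 11 of 13 tested for complex I, 2 of 2 for complex II, 2 of 3 for complex III, 19 of 20 for complex IV and 4 of 4 for complex V had log2 fold changes below 0. TIMMDC1, an assembly factor of the membrane arm of complex I, was the only one of these called (background 2.91% of all genes called lower). It ranged from 33.4 to 63.2 CPM in NA (median 47.1) and from 29.1 to 41.2 CPM in A samples (median 37.9), and fell by 0.38 on the log2 scale (SE 0.11, edgeR adjusted p = 0.0378). The call was kept in 9 of 20 fits that left out 1 sample, where the adjusted p reached at most 0.0765, and with the HINTW term the log2 fold change was -0.10 (edgeR adjusted p = 0.998). NDUFAB1, the acyl carrier subunit of complex I, and CYCS, cytochrome c, had log2 fold changes of -0.15 and -0.28 and were not called.

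Among 13 tested regulators of mitochondrial biogenesis, 9 were below 0 and 1 was called, in the other direction (background 3.33% of all genes called higher). ESRRG, a nuclear receptor that drives oxidative metabolism genes in muscle, ranged from 9.48 to 23.4 CPM in NA (median 16.8) and from 17.6 to 31.7 CPM in A samples (median 25.8). ESRRG rose by 0.58 on the log2 scale (SE 0.16, edgeR adjusted p = 0.0376), a call kept in 9 of 20 fits that left out 1 sample. With the HINTW term the log2 fold change of ESRRG was 0.31 (edgeR adjusted p = 0.977). The groups overlapped, and NA64B had the lowest level of ESRRG while it had the highest nuclear subunit sum. TFAM, which packages and transcribes mitochondrial DNA, ranged from 31.4 to 70.5 CPM in NA (median 37.3) and from 19.1 to 49.0 CPM in A samples (median 28.1), with a log2 fold change of -0.41 (SE 0.16, edgeR adjusted p = 0.125). Of 16 genes of the tricarboxylic acid cycle and the pyruvate dehydrogenase complex, 14 were below 0, with a median of -0.10. None was called by edgeR, and 2 had an unadjusted p under 0.05 (12.5%, against 24.1% of all genes). The mitochondrial ribosomal proteins, a list added after values were seen, resembled the subunits, with 63 of 69 below 0 and a median of -0.22. Among them, 2 were called lower and 1 higher (background 2.91% and 3.33% of all genes). The cytosolic ribosomal proteins, also an added list, had 63 of 66 below 0, a median of -0.24 and none called by edgeR. Of these, 6 had an unadjusted p under 0.05 (9.09%, against 24.1% of all genes).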

How the data were processed

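RNA of MuSCs was sequenced from poly-T purified libraries (11 NA, 9 A). The study describes leaving out some NA samples without naming them, and its group sizes differ from the labels; all 20 labelled samples were used here. The authors deposited estimated counts (an expected count per gene), not normalized between samples, from Salmon 1.10.1 after trimming and alignment to GRCg7b with STAR 2.7.9a, per the submitters' processing notes. Counts were rounded, filtered with filterByExpr (14524 of 30108 genes kept), normalized by TMM and compared between the groups in edgeR 4.0.16 (R 4.3.3, quasi-likelihood, no covariates), with Benjamini-Hochberg adjustment over all tested genes. Genes with adjusted p of at most 0.05 were called. The SE is the size of the log2 fold change divided by the square root of F. The fit was tested on simulated data. Positions came from the RefSeq table of the same build by symbol or synonym (61 of 65 members). The CPM use effective library sizes. CPM of different genes were not compared, since gene lengths were not used.

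Members and lists were chosen with earlier results of these data known. Named members were those called, the 3 with the smallest p in each complex, fixed core subunits (the alpha and beta subunits of ATP synthase are listed as ATP5F1AZ and ATP5B), isoforms and Z members. The values of 1 member are not reported here. Of the marker lists not described elsewhere, 6 of 8 fibroblast genes (1 called lower), 2 of 6 adipocyte genes, 1 of 3 endothelial genes (called lower) and 1 of 1 erythrocyte gene were below 0. The background was 2.91% of all genes called lower. Alternatives were DESeq2 1.42.0, limma-voom (limma 3.58.1), other normalizations and filters, a HINTW term (log2 of CPM plus 1), samples left out, and bird numbers summed. Figures were drawn with matplotlib 3.10.9.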

Additional observations from a re-analysis of the deposited data

Results flagged for a closer look

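Among 29 measures examined in the 9 A samples (the levels of the 23 named members, the 5 complex sums and the sum of the mitochondrial genes), 3 had a sample whose gap to its nearest neighbour took up more of the range than Dixon's 95% limit of 0.493. Chance gives about 1 in 20 such measures. A73 stood at 91.7 CPM for ATP5I, where the next A sample had 65.9 CPM. A73 was also apart for the sum of complex II, at 354 CPM against 302 CPM in the next sample. A72 stood at 80.4 CPM for COX6A1, against 63.4 CPM in the next sample, although A72 had the lowest median deviation of all members.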

How the results depend on the processing

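The count of called members, 2 in the edgeR test, was 2 or 3 with RLE normalization, without a filter, with a filter of CPM of at least 1 in 9 samples, without the suffix B samples and with bird numbers summed. It was 5 with DESeq2, 8 with limma-voom, 4 with library totals only (6.15% of members and 6.96% of all genes), 0 with the HINTW term, 0 with an added fold threshold and 6 without NA61 and NA61B (9.23% of members and 7.22% of all genes), an alternative chosen after seeing the data. Leaving out 1 sample gave 1 (without A72 or A76B) to 6 (without A73), and 5 without NA61B. The 6 without A73 were 9.23% of members, against 12.2% of all genes in that fit. The share of all genes called also moved between fits, for example 0.00689% with the HINTW term and 15.4% with limma-voom. The counts by themselves were therefore not read as changes in the members. NDUFS4 was called in 9 and NDUFB6 in 8 of the 10 alternatives other than leaving out 1 sample. The medians of complexes I, IV and V stayed below 0 in 30 of 31 alternatives, with the HINTW term as the exception (0.01, 0.02 and 0.01). Those of complexes II and III stayed below 0 in 30 of 30, but with the HINTW term they were only -0.0043 and -0.0099. Without the suffix B samples 51 of 65 members were below 0 with a median of -0.08. With library totals only the median of all genes was -0.08 and that of the members -0.26. Log2 fold changes that changed sign were, with the HINTW term, those of ATP5B (0.0098), COX5A (0.0093), COX6A1 (0.0547), NDUFV1 (0.15), SDHD (0.0070), UQCRC1 (0.0366) and UQCRC2 (0.00080), that of ATP5F1AZ with its W copy added (-0.0883), those of NDUFV1 with limma-voom (0.0023) and without the suffix B samples (0.0542), and those of SDHD without the suffix B samples (0.0417) and with bird numbers summed (0.0179). Leaving out 1 sample gave NDUFV1 values from -0.0776 to 0.0385 and SDHD values from -0.0404 to 0.0405. Of these genes, ATP5F1AZ was called higher in 3 of 20 fits that left out 1 sample and in 4 of 11 other alternatives, and the others in none. The cause was not tested. Summing the rows of a symbol could give no other value. No paired analysis was possible because the groups share no replicate numbers.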
